A study of Mus musculus with 4 samples.

Results

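Vascular endothelial growth factor (VEGF) signalling was described here through 9 genes: the ligands Vegfa, Vegfb, Vegfc and Pgf, the receptor tyrosine kinases Kdr, Flt1 and Flt4, and the neuropilin co-receptors Nrp1 and Nrp2. They were chosen by the gene symbol of the platform annotation, which named them on 22 of 45101 probe sets, and they are 9 of the 18193 genes measured. RNA came from cultures that the labels call endothelial cells made from murine iPSCs, the pluripotent cells obtained when adult cells are reprogrammed. DIO cells came from 2 mice with diet-induced obesity (DIO) and control cells from 2 healthy mice, all aged 24 weeks, with 1 Affymetrix array per mouse. The sources used here do not give the strain, the sex or the diet. All 4 cultures were grown in an endothelial medium, and the labels record no sort. The number of iPSC lines per mouse is not stated. The p-values therefore measure only the spread between these 4 samples, which may be partly technical.

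VEGF ligands are secreted dimers that bind receptor tyrosine kinases on endothelial cells. Vegfa drives endothelial growth, migration and permeability mainly through Kdr (VEGFR2), while Flt1 (VEGFR1) binds Vegfa, Vegfb and Pgf tightly, signals weakly, and in its secreted form traps ligand. Vegfc acts on Flt4 (VEGFR3), the receptor of lymphatic growth, and neuropilins bind both VEGF ligands and class 3 semaphorins. Low oxygen raises Vegfa transcription through hypoxia-inducible factors.

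Most endothelial markers were dim on all 4 arrays. Of 20 endothelial marker genes, 5 had a mean above 7.09, the median of all gene means on the log2 scale, and the list averaged 5.79 and 5.72 in DIO 1 and DIO 2, against 5.83 and 6.13 in control 1 and control 2. Pecam1, an adhesion molecule of endothelial junctions, was at 7.20 and 6.05 in the DIO arrays, against 7.34 and 6.83 in the controls, and the junction cadherin Cdh5 was at 8.48 and 9.34 in the DIO arrays, against 8.37 and 8.87 in the controls. Of the members, 3 of 4 ligands, 2 of 3 receptors and 0 of 2 neuropilins lay above the median of gene means. Kdr lay below it, with a mean of 6.44. All 12 pluripotency markers lay above the median of gene means, among them Pou5f1, a core factor of the pluripotent state, at 11.79 and 10.33 in the DIO arrays, against 11.16 and 9.96 in the controls. Control 2 stood apart by most genes of an epithelial and epidermal list. Of these, 11 of 15 were highest there, where 3815 of all 18193 genes were. The others, Krt8, Krt18, Cdh1 and Epcam, were bright on all 4 arrays, with means of 14.04, 13.84, 11.99 and 11.97. That list averaged 9.49 and 9.94 in DIO 1 and DIO 2, against 8.72 and 11.98 in control 1 and control 2. The mean of the 18S ribosomal RNA probe sets was 12.30 and 11.96 in the DIO arrays, against 12.60 and 12.65 in the controls. In bulk cultures of this kind, fewer cells of a type and less RNA per cell cannot be told apart, and "endothelial" follows the labels.

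The sequences just upstream of 4 members are shown because their DIO and control arrays did not overlap. Both DIO arrays lay below both controls for Flt1, Kdr and Nrp1, and above both for Vegfa. Over all genes, 17% lay below both controls in this way and 21.4% above. Each sequence is the 250 bases before the annotated transcription start from RefSeq on GRCm38.p6, written 5′ to 3′ along the gene's strand. For Vegfa, which has 2 start sites in that table, the window listed first is shown. Capitals mark matches, on either strand, to 5 motifs: the TATA box TATAAA, the cyclic AMP response element TGACGTCA, the GC box GGGCGG bound by Sp1 factors, the core GGAAG bound by ETS factors, and the core ACGTG bound by hypoxia-inducible factors.
Flt1, chr5:147726012-147726261, minus strand: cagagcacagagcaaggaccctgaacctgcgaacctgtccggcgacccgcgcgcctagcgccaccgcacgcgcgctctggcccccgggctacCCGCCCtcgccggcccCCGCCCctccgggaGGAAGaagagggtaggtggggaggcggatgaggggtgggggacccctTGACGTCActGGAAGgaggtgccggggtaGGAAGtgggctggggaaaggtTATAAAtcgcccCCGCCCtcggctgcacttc
Kdr, chr5:75978456-75978705, minus strand: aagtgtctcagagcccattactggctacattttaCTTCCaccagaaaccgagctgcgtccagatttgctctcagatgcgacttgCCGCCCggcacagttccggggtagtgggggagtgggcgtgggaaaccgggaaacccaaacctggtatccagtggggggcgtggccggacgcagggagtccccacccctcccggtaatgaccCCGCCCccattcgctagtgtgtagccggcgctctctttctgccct
Nrp1, chr8:128358823-128359072, plus strand: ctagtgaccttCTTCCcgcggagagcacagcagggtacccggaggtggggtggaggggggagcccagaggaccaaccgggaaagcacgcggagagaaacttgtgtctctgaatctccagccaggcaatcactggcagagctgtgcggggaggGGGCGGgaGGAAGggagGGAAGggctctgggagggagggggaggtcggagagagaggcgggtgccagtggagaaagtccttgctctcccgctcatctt
Vegfa, chr17:46032378-46032627, minus strand: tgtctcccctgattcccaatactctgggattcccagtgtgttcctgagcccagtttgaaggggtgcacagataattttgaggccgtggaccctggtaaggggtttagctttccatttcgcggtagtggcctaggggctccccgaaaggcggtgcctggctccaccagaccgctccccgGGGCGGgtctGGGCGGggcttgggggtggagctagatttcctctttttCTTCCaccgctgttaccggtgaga
The Flt1 window held a TATA box starting 31 bases before the start site, a cyclic AMP response element starting 81 bases before it, 3 ETS cores and 3 GC boxes. Kdr had 2 GC boxes and 1 ETS core, Nrp1 had 1 GC box and 3 ETS cores, and Vegfa had 2 GC boxes and 1 ETS core. Over the upstream 250 bases of 32851 annotated starts, the TATA box letters were present in 12.4%, the cyclic AMP response element in 1.55%, the GC box in 32.7%, the ETS core in 64.1% and the hypoxia core in 16.6%. No matches overlapped in these 4 windows. A match describes letters only, and the arrays did not measure binding.

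No member differed between DIO and control cells after adjustment over all genes. In limma 0 of 9 member genes passed an adjusted p of 0.05, the count over all genes was also 0 (0%), and the members' adjusted p ran between 0.728 and 0.961. At an unadjusted p below 0.05, 1 member was lower in DIO, Flt1, where 3.32% of all genes were lower, and no member was higher, where 3.26% of all genes were. Among the members, 4 had a higher and 5 a lower DIO mean, where 53.3% of all genes were higher and 46.7% lower, with a median log2 difference of −0.07, against 0.02 over all genes. The DIO pair lay above both controls for 1 member and below both for 3, shares to be read against 21.4% and 17% of all genes. Over single probe sets, 0 of 22 passed in limma, where 0% of all probe sets did, and 1 had an unadjusted p below 0.05, where 9.29% of all probe sets did. The DIO pair was above both controls for 3 of the 22 and below both for 5, where 22.3% and 19% of all probe sets were. With 2 arrays in each group, the smallest p of a 2-sided exact permutation test is 0.333.

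**Figure D1:**
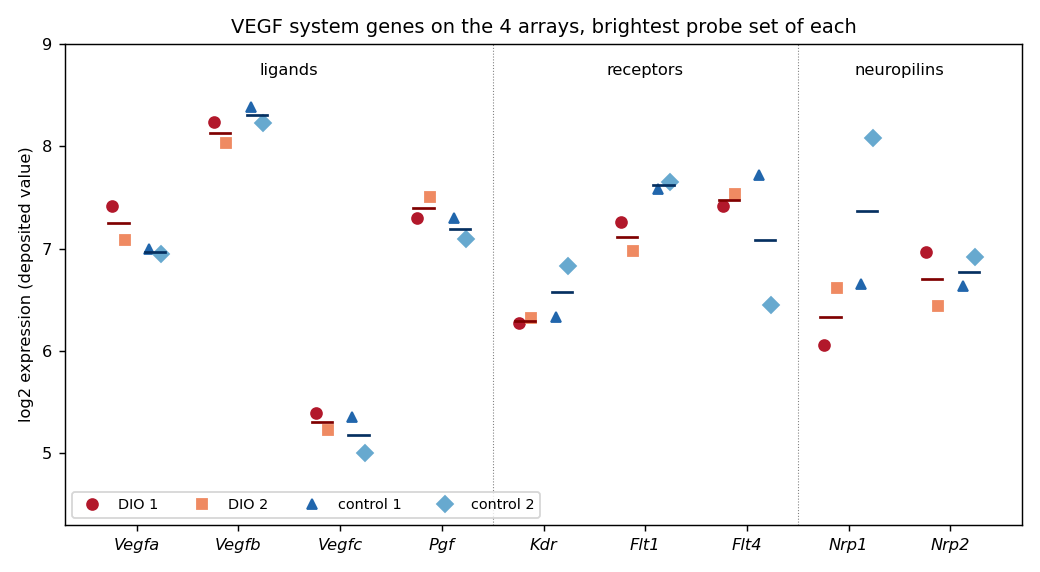
Deposited log2 expression of the 9 genes, each by its brightest probe set, with 1 point per array, a bar at each group's mean, and DIO left of control for each gene. The Flt1 points of DIO (7.26 and 6.98) sit below both controls (7.59 and 7.65), and control 2 is the highest Nrp1 point at 8.08 and the lowest Flt4 point at 6.45.

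Vegfa was the ligand gene whose DIO and control arrays did not overlap. It was at 7.42 and 7.09 in DIO 1 and DIO 2, against 7.0 and 6.94 in control 1 and control 2, with the brighter of its probe sets, 1420909_at. Both DIO arrays were above both controls, DIO 2 only narrowly. The log2 difference was 0.28 ± 0.17 (SE, n = 2 per group), with a 95% interval of −0.18 to 0.74, and did not pass (limma, adjusted p = 0.764). It was 0.12 without DIO 1, 0.45 without DIO 2 and 0.15 with the probe sets averaged. The other Vegfa probe set, 1451959_a_at, was at 7.18 and 7.06 in the DIO arrays, against 7.22 and 6.98 in the controls. There the groups overlapped and the difference was 0.02 ± 0.15, so the separation of the groups was seen with 1 of the 2 Vegfa probe sets.

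Vegfb, a ligand of Flt1 linked to fatty acid handling in the endothelium, was read by a single probe set at 8.23 and 8.03 in DIO cells, against 8.38 and 8.22 in control cells. Its groups overlapped by the width of 0.01, and the difference was −0.17 ± 0.15 (SE). It came to −0.07 without DIO 2 and after quantile normalization, and to −0.27 without DIO 1. Pgf, the placental growth factor, which binds Flt1 and not Kdr, was at 7.30 and 7.51 in DIO cells, against 7.30 and 7.09 in control cells. DIO 2 was highest and control 2 lowest, DIO 1 and control 1 were level, and the difference was 0.21 ± 0.16. It was 0.10 both without control 2 and without DIO 2, and 0.31 both without control 1 and without DIO 1.

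Vegfc, the ligand of Flt4, had 3 probe sets with overlapping groups. The brightest, 1439766_x_at, was at 5.39 and 5.23 in DIO cells, against 5.36 and 5.01 in control cells, a difference of 0.13 ± 0.18 (SE). The probe set 1440739_at was at 4.66 and 4.25 in DIO cells, against 5.07 and 4.50 in control cells, and 1419417_at at 4.42 and 4.57, against 4.62 and 4.10. Their differences were −0.33 ± 0.26 and 0.13 ± 0.21, so the probe sets did not share a direction. All 3 were lower in control 2 than in control 1, and without control 2 the difference of the brightest turned to −0.05. With no detection calls, how far signals this low lie above background is unknown.

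Across the 4 ligand genes, 3 were lowest in control 2, as were 7466 of all 18193 genes. All 4 were lower in control 2 than in control 1, by a median of −0.18, against −0.09 over all genes. Control 2 was above control 1 for 6843 of the 18193. The DIO mean was above control 2 for 3 ligands and above control 1 for 2 of them. A higher ligand mean in DIO thus depended in part on which control was used.

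Among the receptors, Flt1 was the member with the smallest p. Its brightest probe set, 1451756_at, was at 7.26 and 6.98 in DIO 1 and DIO 2, against 7.59 and 7.65 in control 1 and control 2. Both DIO arrays were below both controls, and the controls lay within 0.07 of each other. The difference was −0.50 ± 0.16 (SE, n = 2 per group), with a 95% interval of −0.93 to −0.08 and an unadjusted p of 0.0305 in limma. It did not pass after adjustment over all genes (limma, adjusted p = 0.728). The difference was −0.36 without DIO 2, −0.64 without DIO 1, −0.47 without control 2 and −0.53 without control 1, and the unadjusted p of these 4 limma fits ran between 0.0435 and 0.176. It was also above 0.05 after quantile normalization (unadjusted p = 0.0601 in limma) and with a trended robust eBayes (0.0684).

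The other 3 Flt1 probe sets did not all show this pattern. With 1440926_at Flt1 was at 6.07 and 5.59 in DIO cells, against 6.31 and 6.25 in control cells, a difference of −0.45 ± 0.20 (SE). With 1454037_a_at it was at 6.39 and 6.04 in DIO cells, against 6.56 and 6.43 in control cells, a difference of −0.28 ± 0.17. For both, the DIO arrays lay below the controls, DIO 2 by more than DIO 1. With 1419300_at it was at 6.84 and 6.46 in DIO cells, against 6.53 and 6.58 in control cells, so the groups overlapped, and the difference was 0.09 ± 0.17. In all 4 probe sets DIO 2 was lower than DIO 1. Averaging the 4 brought the Flt1 difference to −0.29 (limma, unadjusted p = 0.159, adjusted p = 0.764). Flt1 is transcribed as a membrane-bound and as a shorter secreted form, and which probe set reads which form is not known here.

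Kdr, the main signalling receptor for Vegfa, had a single probe set at 6.27 and 6.32 in DIO cells, against 6.33 and 6.83 in control cells. Both DIO arrays were below both controls, but DIO 2 and control 1 were 0.01 apart, and control 2 was the only array clearly above the others. The difference was −0.28 ± 0.21 (SE), with a 95% interval of −0.87 to 0.30 (limma, adjusted p = 0.789). It shrank to −0.03 without control 2 and grew to −0.54 without control 1.

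Flt4, the receptor of Vegfc, was at 7.41 and 7.53 in DIO cells, against 7.72 and 6.45 in control cells with its brighter probe set, 1444052_at. The controls differed by 1.27 and enclosed both DIO arrays, and the difference of 0.39 ± 0.46 (SE) turned to −0.24 without control 2. With 1421442_at Flt4 was at 5.09 and 5.08 in DIO cells, against 5.05 and 4.79 in control cells. Both DIO arrays were above both controls there, by 0.04 over control 1, and control 2 was again the lowest array. Of the lymphatic markers Prox1, Lyve1, Pdpn, Reln and Nr2f2, 2 of 5 had a mean above the median of gene means. These were Pdpn (10.14) and Nr2f2 (8.86). Prox1, Lyve1 and Reln were dim, with means at percentiles 14.79, 17.52 and 17.62 of all gene means. The list averaged 6.24 and 6.18 in DIO cells, against 6.13 and 6.50 in control cells. That average rests largely on Pdpn and Nr2f2.

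**Figure D2:**
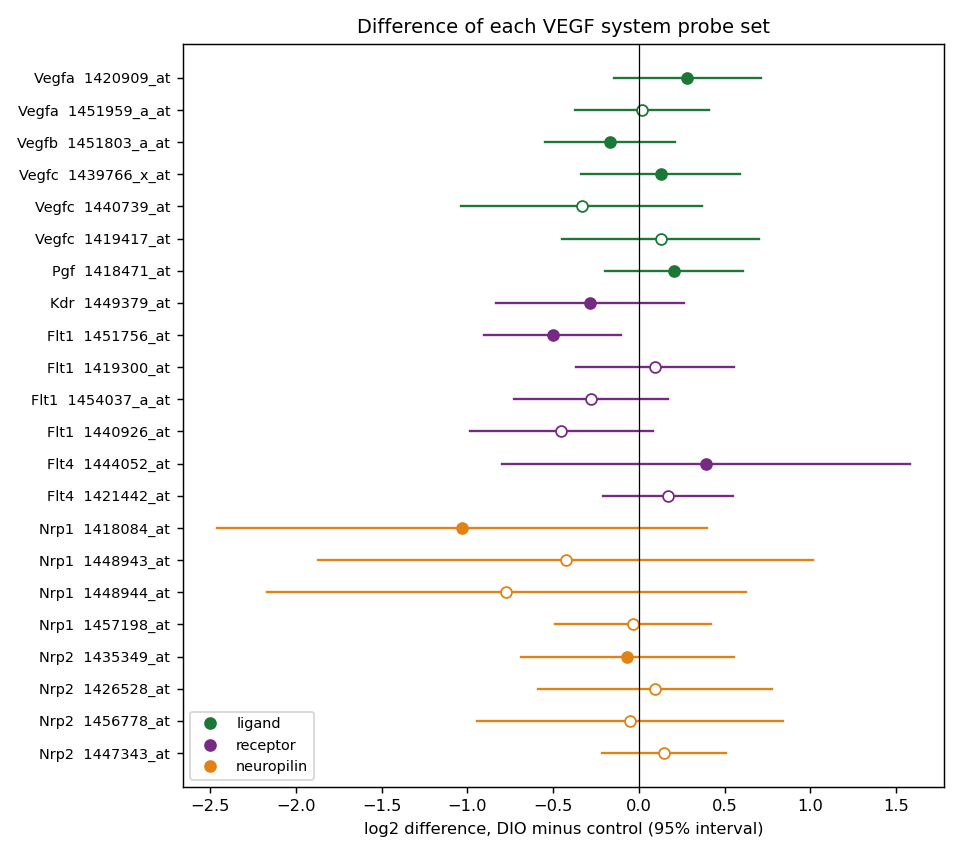
Log2 difference (DIO minus control) of each of the 22 probe sets with its 95% interval from the limma fit over all probe sets, coloured by role, with filled circles for the brightest probe set of a gene and open circles for the others. The interval leaves out 0 for 1451756_at of Flt1 alone (−0.90 to −0.10), before any adjustment, and the intervals of 3 of the 4 Nrp1 probe sets are the widest.

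Nrp1, the co-receptor that presents Vegfa to Kdr, varied most among the members, and control 2 set that range. With its brightest probe set, 1418084_at, it was at 6.05 and 6.62 in DIO 1 and DIO 2, against 6.65 and 8.08 in control 1 and control 2. Both DIO arrays were below both controls, DIO 2 by 0.03 from control 1. The difference was −1.03 ± 0.55 (SE, n = 2 per group), with a 95% interval of −2.53 to 0.47 (limma, adjusted p = 0.750). It was −0.31 without control 2 and −1.75 without control 1.

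The probe sets 1448943_at and 1448944_at followed the same order in part. The first was at 6.13 and 7.02 in DIO cells, against 6.36 and 7.65 in control cells, and the second at 5.94 and 6.33, against 6.18 and 7.64. In both, control 2 was highest, DIO 1 lowest, and DIO 2 above control 1. The dimmer 1457198_at was at 5.12 and 5.20 in DIO cells, against 5.01 and 5.38 in control cells, again with control 2 highest. All 4 Nrp1 probe sets were thus highest in control 2, as were 9755 of all 45037 probe sets. For the 4, the median distance of control 2 from control 1 was 1.36. In control 2 the epithelial and epidermal list exceeded control 1 in 13 of 15 genes, by a median of 4.22, and the part of these genes in the Nrp1 values was not tested.

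Nrp2, the neuropilin that binds Vegfc and class 3 semaphorins, had 4 probe sets with no common direction. The brightest, 1435349_at, was at 6.97 and 6.44 in DIO cells, against 6.63 and 6.91 in control cells, a difference of −0.07 ± 0.24 (SE). DIO 1 was the highest array and DIO 2 the lowest, so the spread within DIO exceeded the difference between the groups. With 1426528_at Nrp2 was at 6.20 and 5.96 in DIO cells, against 5.67 and 6.30 in control cells. With 1456778_at it was at 5.06 and 5.13, against 4.68 and 5.61, the controls enclosing both DIO arrays in each case. The dim 1447343_at was at 3.59 and 3.39 in DIO cells, against 3.30 and 3.38 in control cells.

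**Figure D3:**
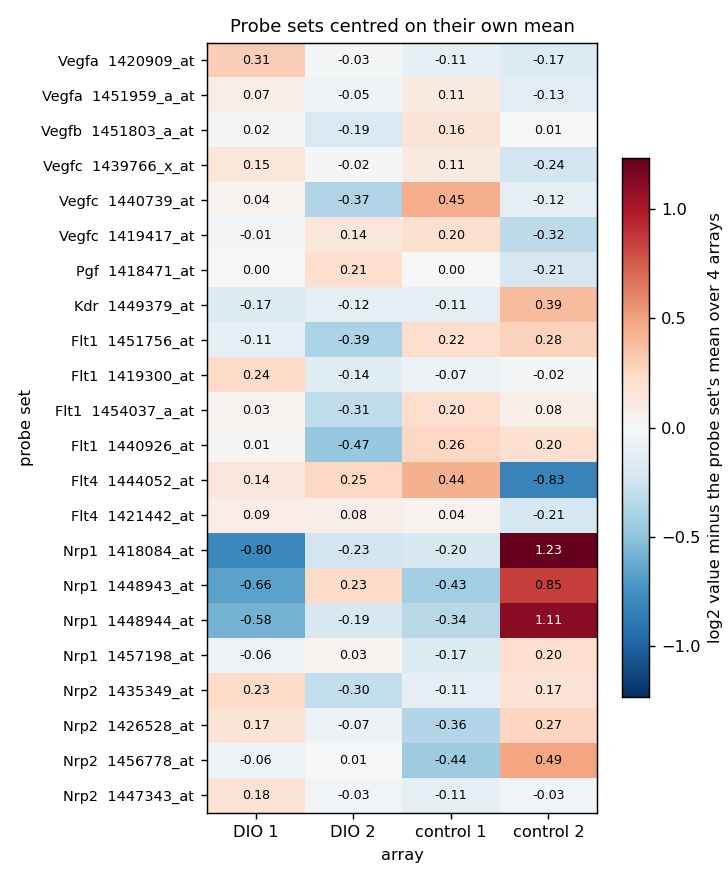
Each probe set's log2 value on the 4 arrays after subtracting its own mean over them, with DIO arrays in the left columns, red for above and blue for below the mean. The control 2 column holds the largest departures, 1.23 above the mean for 1418084_at of Nrp1 and 0.83 below it for 1444052_at of Flt4.

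Signals of different probe sets are not on a common scale of RNA amount, so ligands and receptors were compared by how their log ratio on the same array changed between the groups. The log2 signal ratio of Vegfa to Flt1 was 0.16 and 0.11 in DIO 1 and DIO 2, against −0.59 and −0.71 in control 1 and control 2. The groups were far apart beside the spread within each, and the ratio was 0.78 higher in DIO, with a range of 0.72 to 0.84 when any array was left out. With the probe sets of each gene averaged, the value was 0.44. The brightest probe sets, used here, had the largest differences of their genes. The other Vegfa probe set differed by 0.02, and the other Flt1 probe sets by −0.45 to 0.09. Since Vegfa lay above and Flt1 below the controls in both DIO arrays with the probe sets used, the ratio restates their opposite differences.

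The other ratios to Flt1 were also higher in both DIO arrays. Pgf over Flt1 was at 0.04 and 0.53 in DIO cells, against −0.29 and −0.56 in control cells, a difference of 0.71 that came to 0.46 without DIO 2 and 0.95 without DIO 1. Vegfb over Flt1 was at 0.98 and 1.06 in DIO cells, against 0.80 and 0.57 in control cells, a difference of 0.33 that came to 0.12 with averaged probe sets. These 3 ratios share Flt1 and are not independent of each other.

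Vegfa over Kdr was at 1.15 and 0.77 in DIO cells, against 0.67 and 0.11 in control cells, a difference of 0.57, and of 0.28 without control 2. For Vegfc the groups overlapped with either receptor. Vegfc over Flt4 was at −2.02 and −2.31 in DIO cells, against −2.36 and −1.44 in control cells, and Vegfc over Kdr at −0.88 and −1.09, against −0.97 and −1.83. No test was made of these ratios, and no ratios of other gene pairs were worked out for comparison.

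**Figure D4:**
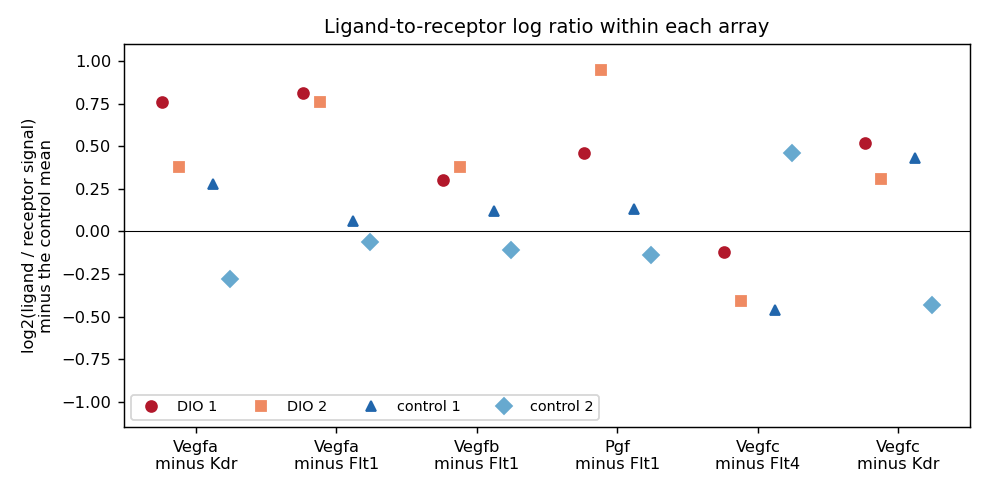
Log2 ratio of ligand to receptor signal on each array, shown relative to the mean of the 2 controls for each of 6 ligand and receptor pairs, with DIO left of control. Both DIO points lie above both controls for Vegfa over Kdr and for the 3 pairs with Flt1, and among or beside the controls for the 2 pairs with Vegfc.

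The range over the arrays was 1 log2 unit or more for 2 of the 9 members, Flt4 and Nrp1, where 9.79% of all genes had such a range. For these, the 3 genes with the most similar profile were sought among 8927 named genes above the median of gene means, by the root mean square difference of values centred on each gene's mean over the 4 arrays. For Nrp1 they were Sema6d, a transmembrane semaphorin (0.06), Nucb2 (0.10) and the motor protein Myo5b (0.10). Sema6d was at 6.85 and 7.33 in DIO cells, against 7.50 and 8.95 in control cells. For Flt4 they were the phospholipase Pla2g15 (0.07), Aunip (0.07) and Ppp2r3d (0.07), each lowest in control 2. With 4 arrays such likeness is weak, since it rests largely on the distance of control 2.

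The genes around the VEGF system were described from lists, and for each the DIO mean is compared with both controls and with control 1 alone. Over all genes the DIO mean was higher for 53.3% and lower for 46.7%, both DIO arrays were above both controls for 21.4% and below both for 17%, and 6.58% had an unadjusted p below 0.05. Against control 1 alone, 8203 of the 18193 genes had a higher and 9987 a lower DIO mean. Vegfd, a further ligand of Flt4, was measured with the genes that cleave or activate Vegfc. Of these 6 genes, 2 had a higher and 4 a lower DIO mean, and against control 1 alone 4 were higher and 2 lower. Vegfd was at 4.95 and 4.75 in DIO cells, against 4.48 and 4.46 in control cells, a difference of 0.38 ± 0.14 (SE, limma, adjusted p = 0.728). The proprotein convertase Pcsk7, the brightest of the list, was at 8.40 and 8.50 in DIO cells, against 8.77 and 8.84 in control cells, a difference of −0.35 ± 0.13 (limma, adjusted p = 0.728). For both genes the groups did not overlap, and 0 of the 6 passed in limma, with 2 at an unadjusted p below 0.05.

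Neuropilins also serve class 3 semaphorins, which signal through plexins. Of 12 such genes, 5 had a higher and 7 a lower DIO mean, but against control 1 alone 9 were higher and 3 lower. Of the 12, 8 were highest in control 2, as were 3815 of all 18193 genes. Sema3f, the ligand of Nrp2, was at 8.48 and 8.55 in DIO cells, against 7.69 and 8.0 in control cells, a difference of 0.67 ± 0.16 (SE). The co-receptor Plxna2 was at 8.21 and 8.28 in DIO cells, against 8.72 and 8.96 in control cells, a difference of −0.60 ± 0.15. For both genes the groups did not overlap, with unadjusted p of 0.0132 and 0.0142 in limma, and neither passed (adjusted p = 0.728 for each). Sema3e, a ligand of Plxnd1, was at 9.08 and 9.31 in DIO cells, against 8.32 and 9.56 in control cells.

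In the related platelet-derived growth factor (PDGF) family, 2 of 6 genes had a higher and 4 a lower DIO mean, but against control 1 alone 4 were higher and 2 lower, and 0 passed in limma at either threshold. Pdgfrb, the receptor of mural cells, was at 7.83 and 8.53 in DIO cells, against 7.07 and 7.57 in control cells, a difference of 0.86 ± 0.32 (SE, limma, adjusted p = 0.728). Of 8 smooth muscle and mural markers, 5 had a higher and 3 a lower DIO mean, 4 had both DIO arrays above both controls and 1 had both below, and 0 passed in limma, with 1 at an unadjusted p below 0.05. That list averaged 6.74 and 6.82 in DIO cells, against 6.69 and 6.42 in control cells. Against control 1 alone 4 of the 8 were higher and 4 lower. The contractile genes Tagln and Acta2, chosen after their values were seen, had differences of 0.94 ± 0.27 and 0.91 ± 0.38. The 3 lower markers were Mylk, at −0.70 ± 0.34 with both DIO arrays below both controls, Cnn1 at −0.05 and Rgs5 at −0.02. The part of such cells in the Pdgfrb values was not tested. Pdgfc was at 6.68 and 6.54 in DIO cells, against 6.78 and 9.37 in control cells, so that control 2 alone was far from the rest, as for Nrp1. Pdgfa was at 10.89 and 10.55 in DIO cells, against 10.67 and 10.52 in control cells.

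Of 28 measured genes that relay receptor signals, 12 had a higher and 16 a lower DIO mean, with a median of −0.08, and 0 passed in limma, with 1 at an unadjusted p below 0.05. Against control 1 alone 10 were higher and 18 lower. The DIO pair lay above both controls for 7 and below both for 10, where 21.4% and 17% of all genes did. Vav2, an exchange factor for Rac proteins, was at 7.58 and 7.80 in DIO cells, against 7.33 and 7.05 in control cells, a difference of 0.50 ± 0.17 (SE). The Src-family kinase Fyn was at 8.17 and 7.76 in DIO cells, against 8.73 and 8.38 in control cells, a difference of −0.59 ± 0.22. Both had an adjusted p of 0.728 in limma. The heat shock protein Hspb1, a target of the p38 pathway, was at 13.85 and 13.96 in DIO cells, against 14.04 and 14.22 in control cells. Nos3, the endothelial nitric oxide synthase that lies downstream of Kdr, was at 6.29 and 6.19 in DIO cells, against 6.25 and 7.06 in control cells, with control 2 highest as for Kdr.

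Genes known to be induced by VEGF in endothelial cells had no shared direction. Of 17, 8 had a higher and 9 a lower DIO mean, with a median of −0.01, against control 1 alone the counts were also 8 and 9, and 0 passed in limma, with 2 at an unadjusted p below 0.05. The nuclear receptor Nr4a1 was at 8.77 and 8.58 in DIO cells, against 8.20 and 8.24 in control cells, a difference of 0.46 ± 0.14 (SE). Adamts1, a protease that binds Vegfa, was at 5.67 and 6.0 in DIO cells, against 6.32 and 6.96 in control cells, a difference of −0.80 ± 0.28. For both the groups did not overlap, and both had an adjusted p of 0.728 in limma. The phosphatase Dusp5 was at 10.60 and 10.77 in DIO cells, against 10.72 and 10.51 in control cells.

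Of 9 oxygen-sensing genes, 8 had a lower DIO mean, by −0.73 to −0.02, where 46.7% of all genes had a lower mean. The median of the 9 was −0.09. Of the 8, 3 had both DIO arrays below both controls, where 17% of all genes did. The list holds both subunits of hypoxia-inducible factors and genes that act against them, such as Egln1, so a common direction has no single meaning for Vegfa. Against control 1 alone 7 of 9 were lower. Hif1a, the oxygen-regulated subunit of the hypoxia-inducible factor, was at 11.49 and 11.63 in DIO cells, against 11.61 and 11.82 in control cells, and the groups overlapped. Epas1, its endothelial relative, was at 11.34 and 11.14 in DIO cells, against 11.39 and 12.10 in control cells, a difference of −0.50 ± 0.28 (SE). The prolyl hydroxylase Egln1, which marks these subunits for destruction, was the exception, at 8.63 and 8.57 in DIO cells, against 8.33 and 8.19 in control cells, a difference of 0.34 ± 0.13. In limma 0 of the 9 passed, and 0 had an unadjusted p below 0.05.

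Most other targets of hypoxia-inducible factors had a lower DIO mean. Of 14, 4 had a higher and 10 a lower DIO mean, where 46.7% of all genes had a lower mean. Their median was −0.14, where Vegfa was at 0.28 with its brighter probe set and at 0.02 with the other. Against control 1 alone the counts were also 4 and 10. In limma 0 of the 14 passed, with 1 at an unadjusted p below 0.05. P4ha2, a collagen prolyl hydroxylase, was at 8.32 and 7.93 in DIO cells, against 8.73 and 9.55 in control cells, a difference of −1.02 ± 0.34 (SE, limma, adjusted p = 0.728). Pdk1 was at 10.13 and 9.37 in DIO cells, against 9.23 and 9.05 in control cells, a difference of 0.61 ± 0.30. Slc2a1, the glucose transporter, was at 13.60 and 13.76 in DIO cells, against 13.65 and 13.70 in control cells. The list averaged 9.94 and 9.46 in DIO 1 and DIO 2, against 9.92 and 9.84 in control 1 and control 2. DIO 2 was thus its lowest array. With its brighter probe set, Vegfa was lower in DIO 2 (7.09) than in DIO 1 (7.42), but above both controls (7.0 and 6.94). A link between this list and Vegfa was not tested.

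**Figure D5:**
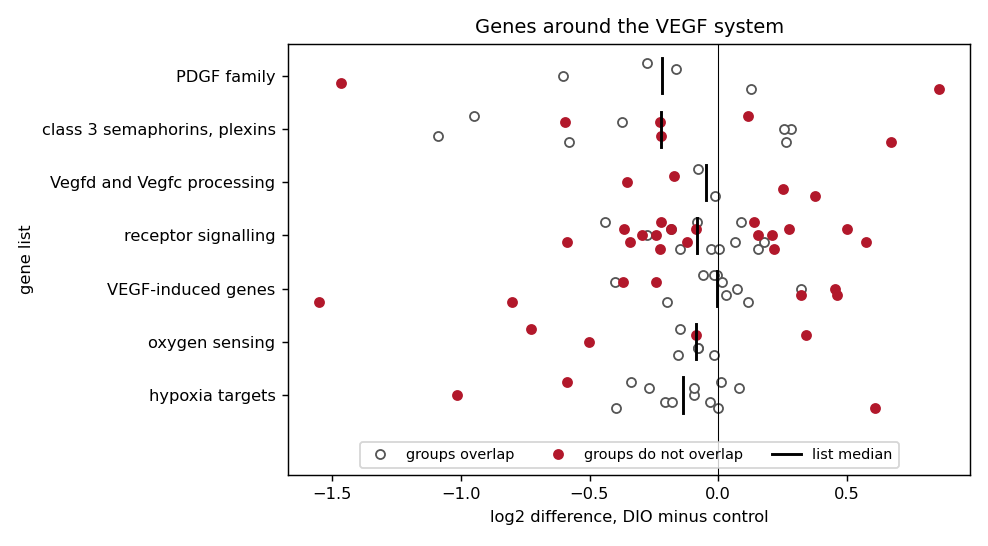
Log2 difference (DIO minus control) of each gene in 7 lists around the VEGF system, with a point per gene, filled where the DIO and control arrays do not overlap, and a bar at each list's median. Points fall on both sides of 0 in all 7 lists, and the medians lie between −0.22 and −0.01.

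Trophoblast cells also express Flt1 and Pgf, and their markers had higher means in DIO cells. Of 12 listed trophoblast markers 8 were measured, and the other 4 were not analysed here. All 8 had a higher DIO mean, by a median of 0.67, and 5 had both DIO arrays above both controls, where 53.3% of all genes had a higher mean and 21.4% had both arrays above. Against control 1 alone 7 were higher and 1 lower, with a median of 0.34. Control 2 was the lowest array for 7 of the 8, as for 7466 of all 18193 genes. In limma 0 of the 8 passed, with 1 at an unadjusted p below 0.05. The list averaged 8.68 and 9.01 in DIO 1 and DIO 2, against 8.45 and 8.05 in control 1 and control 2, and 7 of the 8 were above the median of gene means. Pgf was likewise highest in DIO 2 and lowest in control 2, while Flt1 was lowest in DIO 2 with its brightest probe set. The part of these cells in either gene was not tested. Higher means in DIO were not limited to this list. Of 12 pluripotency markers, 11 had a higher DIO mean, by a median of 0.38, and 10 were lowest in control 2. Compared with control 1 alone, 4 of the 12 were higher and 8 lower. Blood markers were dim, with 0 of 8 above the median of gene means.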

How the data were processed

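The deposited file gave 1 log2 expression value per probe set and array. The log2 scale was read from the values that the authors deposited, which ran between 2.59 and 14.56; how background, normalization and summary were handled is not given in the sources used here. RNA was labelled with an Affymetrix 3' IVT protocol, per the labels' protocols. Array medians were 5.61 and 5.61 in DIO and 5.63 and 5.65 in control. Their number, 2 per group, limits the precision: the 95% interval of a gene's difference extended 0.46 each way in the median gene.

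Of 45101 probe sets, 64 controls were left out, and 34945 had 1 gene symbol, 932 several and 9160 none listed. By gene number 34741 matched RefSeq (GRCm38.p6), and 0 changed symbol. Each of 18193 genes was represented by its brightest probe set naming it alone, unfiltered. DIO minus control was fitted in limma 3.58.1 under R 4.3.3 (lmFit, eBayes, 2-sided tests). P-values were adjusted by Benjamini-Hochberg across every gene or every probe set, with a threshold of 0.05. Errors of a gene's brightest probe set are from the gene fit, and those of its other probe sets from the probe set fit. The fits were tested on simulated data. Named were all members, of each pathway list the 2 genes with the smallest p and the brightest, Hif1a, Nos3, Pecam1, Cdh5 and Pou5f1, and the 3 nearest profiles of members with a range of 1 or more. The members and lists were chosen with earlier results of these data known. Alternatives were quantile normalization, median centring, leaving out the dimmest 40% of genes, averaged probe sets, a trended robust eBayes, array weights, a replicate block and leaving out each array. The list counts against control 1 alone were added after seeing the data. In the signalling list, 5 of 33 genes were not analysed here.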

Additional observations from a re-analysis of the deposited data

How the results depend on the processing

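The precision is limited by the 2 arrays per group. No member gene passed under any of the 11 alternatives run for genes, nor any member probe set under the 9 run for probe sets, and 6 of the 9 member genes kept their sign in all 11: Vegfa, Vegfb, Pgf, Kdr, Flt1 and Nrp1. Vegfc gave no value without the dimmest 40% of genes, to which it belongs, and turned to −0.027 with averaged probe sets, and Nrp2 to 0.05 after quantile normalization and 0.031 with averaged probe sets; for these the cause was not tested. Leaving out each array in turn gave −0.048 to 0.30 for Vegfc, −0.24 to 1.02 for Flt4 and −0.33 to 0.20 for Nrp2. Among dimmer probe sets it gave −0.10 to 0.14 for Vegfa 1451959_a_at, −0.13 to 0.39 for Vegfc 1419417_at, −0.10 to 0.29 for Flt1 1419300_at, −1.07 to 0.21 for Nrp1 1448943_at, −0.22 to 0.15 for Nrp1 1457198_at, −0.22 to 0.41 for Nrp2 1426528_at and −0.51 to 0.41 for Nrp2 1456778_at. Members with both DIO arrays on one side of both controls numbered 4 in all. That count was 3 after quantile normalization, 2 with averaged probe sets and 6 to 7 with an array left out. Fewer arrays make separation easier. Over all genes 483 passed in limma without control 1 and 0 without any other array. The log ratio of Vegfa to Flt1 came to 0.44 and that of Vegfb to Flt1 to 0.12 with averaged probe sets, where the difference was 0.15 for Vegfa and −0.29 for Flt1. The mouse numbers give no pairing; deviations of same-numbered arrays had a correlation of 0.333 over genes. With the replicate number as a block, 0 genes and 0 members passed, the unadjusted p of Flt1 was 0.051 and that of Nrp1 was 0.0324, against 0.0305 and 0.13 without it (limma, adjusted p = 0.727 for both with the block), and no call changed.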
